A study of Mus musculus with 9 samples.

Results

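The stromal and matrix transcripts are 38 genes of connective tissue: collagens, other matrix proteins, the enzymes that process them, and receptors, contractile proteins and bone-forming genes of stromal cells. They were taken by name from a fixed list, out of 47731 genes in an RNA count table, and all 38 were found by symbol. The list was drawn up because 1 of the 5 RNA libraries, wild type 3, was known to hold collagen transcripts. The levels across the 5 libraries are therefore a description, with no test.

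Macrophages labelled Tet2 Knockout or Wild-Type, at passage 0 and treated with M-CSF (the growth factor on which macrophages depend), were profiled in mouse. TET2 oxidises methylated cytosine in DNA to 5-hydroxymethylcytosine (5hmC), and the study concerns its part in the differentiation of osteoclasts, the bone-resorbing relatives of macrophages. Total RNA, depleted of ribosomal RNA, was read in 2 knockout libraries (called knockout 1 and 2 here) and 3 wild-type ones (wild type 1, 2 and 3), and DNA enriched for 5hmC in 2 libraries of each genotype. The sources used here do not give strain, age, the knockout allele or the tissue of origin. Nor do they say whether replicates were separate mice or cultures, so a p-value covers only the spread between libraries, which may be technical.

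The RNA libraries held between 16053426 and 56394358 counts in genes, the deepest being wild type 3, and the 5hmC libraries between 42489 and 219116 counts in listed peaks. Levels are counts per 1000000 counts in genes (CPM), and a library with 0 counts is read as at most 3 counts. Tet2 itself, counted over the whole gene, was at 232 and 126 CPM in knockout and at 86.2, 144 and 41.6 CPM in wild type. Whole-gene counts therefore did not separate the genotypes, and each direction below rests on the labels. Macrophage genes were abundant in every library. Over 14 of them the summed level was 20191 and 22695 CPM in knockout, 21350 and 16965 CPM in wild type 1 and 2, and 16552 CPM in wild type 3. In RNA from a whole culture, fewer cells of a type and less RNA per cell cannot be told apart.

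Fibroblasts, osteoblasts and the mural cells around vessels secrete the extracellular matrix. Fibrillar collagens (types I, III and V) give it tensile strength, collagen IV forms the sheet of basement membranes, and collagen VI forms beaded filaments around cells. The chaperone HSP47 folds procollagen, lysyl oxidases cross-link it outside the cell, and proteoglycans such as decorin and biglycan bind the fibrils. Macrophages degrade and remodel matrix, are not a main source of fibrillar collagen, and respond to matrix through integrins.

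Promoters are shown for 4 genes because their results differ: the collagen IV pair, whose genes lie head to head and whose counts changed their ratio between libraries; Acta2, a contractile gene abundant in wild type 3; and Bglap, the osteoblast gene that stayed near 0 in all 5 libraries. Windows run from 250 bases before to 50 bases after a gene's start (RefSeq, GRCm38.p6), in the sense of the gene. The Col4a1 window is chr8:11312777-11313076 on the minus strand and that of Col4a2 chr8:11312555-11312854 on the plus strand. Acta2 is shown at chr19:34255324-34255623 and Bglap at chr3:88384417-88384716, both on the minus strand. Capitals mark motif letters on either strand. In the collagen pair they are CCAAT, a core bound by the factor NF-Y, along with the GC box of Sp1 factors, GGGCGG. For Acta2 they mark the core that TEAD factors bind, GGAATG. For Bglap they mark the letters of a TATA box, TATAAA, then the RUNX core, which is TGTGGT, and again the NF-Y core.
Col4a1: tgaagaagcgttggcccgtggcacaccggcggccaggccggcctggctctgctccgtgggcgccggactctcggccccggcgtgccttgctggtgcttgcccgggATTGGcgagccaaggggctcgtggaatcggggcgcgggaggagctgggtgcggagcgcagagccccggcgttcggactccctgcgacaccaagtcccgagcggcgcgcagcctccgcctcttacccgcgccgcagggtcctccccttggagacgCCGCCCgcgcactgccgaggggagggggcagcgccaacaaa
Col4a2: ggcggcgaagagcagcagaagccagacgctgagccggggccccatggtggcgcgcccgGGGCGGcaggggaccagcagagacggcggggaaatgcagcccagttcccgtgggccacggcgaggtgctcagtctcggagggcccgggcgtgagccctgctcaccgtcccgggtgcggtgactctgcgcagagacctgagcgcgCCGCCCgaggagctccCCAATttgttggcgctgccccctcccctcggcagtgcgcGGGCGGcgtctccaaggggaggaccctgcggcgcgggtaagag
Acta2: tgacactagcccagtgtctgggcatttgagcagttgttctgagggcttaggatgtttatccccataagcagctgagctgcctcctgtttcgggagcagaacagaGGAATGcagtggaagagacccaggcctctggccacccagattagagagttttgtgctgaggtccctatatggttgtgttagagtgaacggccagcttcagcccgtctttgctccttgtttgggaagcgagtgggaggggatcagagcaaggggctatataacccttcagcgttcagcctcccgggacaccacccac
Bglap: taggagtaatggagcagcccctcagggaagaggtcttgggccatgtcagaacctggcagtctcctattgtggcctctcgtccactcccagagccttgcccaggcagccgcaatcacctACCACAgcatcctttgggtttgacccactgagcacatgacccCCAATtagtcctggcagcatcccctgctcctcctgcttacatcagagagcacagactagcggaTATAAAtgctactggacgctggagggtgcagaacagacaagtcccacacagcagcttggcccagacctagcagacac

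The collagen IV windows overlap by 78 bases, which the 2 genes read in opposite directions. A window was at hand for 24 of the 38 genes. Among these, 14 held GGGCGG (58.3%, against 38.2% of 27025 genes with a window), 7 held TATAAA (29.2% against 15.7%) and 7 held CCAAT (29.2% against 41.1%). TGTGGT was found in 2 of the 24, Bglap and Sparc (8.33% against 18.9%), and GGAATG in 3, Acta2, Col3a1 and Col6a2 (12.5% against 16.6%). A match is a description of the letters in the window and says nothing of binding.

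Of the 38 genes, 36 had their highest level in wild type 3. There the genes together took 15690 CPM, or 1.57% of all counts, against 495 and 357 CPM in knockout and 59.4 and 71.3 CPM in wild type 1 and 2. A gene was called restricted to wild type 3 when it reached 1 CPM there and 10 times the highest of the other 4 libraries, a library at 0 being set to 3 counts. That held for 32 of the 38, among 617 of 13017 genes at 1 CPM or more in wild type 3 (4.74%), and since the list was chosen on this contrast nothing is read from that share. In 24 of the 32 the fold was 100 or more and in 10 it was 1000 or more. Just inside the limit stood Sp7 (at least 11.9-fold), Thy1 (at least 12.8-fold) and Col4a1 (15.9-fold). Just outside stood Postn (7.91-fold) and Col4a2 (6.61-fold). Ibsp (at least 5.98-fold) had 63 counts in wild type 3 and 0 in the other 4 libraries. It missed the limit only because 0 is set to 3 counts, so its ratio may exceed 10. A gene at 0 in knockout 1 thus needed more than 1 CPM in wild type 3.

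**Figure D1:**
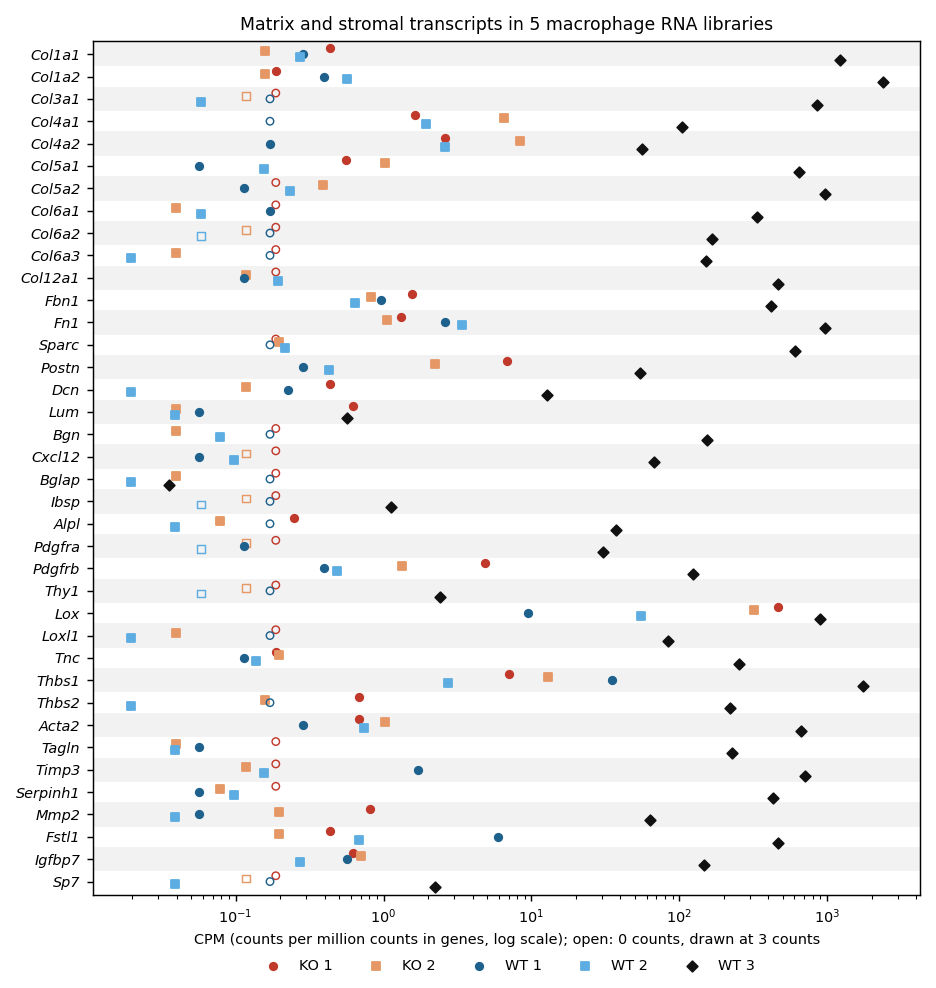
Level of each of the 38 genes in the 5 RNA libraries, in CPM on a log axis; each point is 1 library, and open symbols are libraries with 0 counts, drawn at the level of 3 counts. The black diamonds of WT 3 lie to the right of all other points for 36 genes, while Lox, at 318 to 891 CPM in KO 1, KO 2 and WT 3, is the gene with high levels in several libraries.

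Fibrillar collagens were all restricted to wild type 3. Col1a1 (ENSMUSG00000001506, chr11:94936224-94953042), a chain of collagen I, was at 0.436 and 0.157 CPM in knockout, 0.285 and 0.273 in wild type 1 and 2, and 1214 CPM in wild type 3. Its partner chain Col1a2 was at 0.187 and 0.157 CPM, at 0.398 and 0.565, and at 2373 CPM. Wild type 3 thus stood apart from all 4 other libraries, which were all under 1 CPM for both chains. Col3a1, the collagen of pliable tissues, had 0 counts in both knockout libraries and wild type 1, 3 counts in wild type 2 and 47830 in wild type 3, at least 4538-fold higher. Col5a2, which sits in the core of collagen I fibrils, was at 972 CPM in wild type 3 and at most 0.392 elsewhere. Col5a1 was at 644 CPM there, and knockout 2 gave the next level, 1.02 CPM from 26 counts. Col12a1, a collagen on the fibril surface, was at 465 CPM against at most 0.195.

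Collagen VI had the same pattern. Col6a2 was at 165 CPM in wild type 3 and had 0 counts in the other 4 libraries, a difference of at least 883-fold. Col6a1 (335 CPM) and Col6a3 (151 CPM) had 7 and 2 counts in the other 4 libraries together.

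Collagen IV differed from this. Col4a1 (chr8:11198423-11312889) was at 1.62 and 6.55 CPM in knockout, 0 and 1.95 CPM in wild type 1 and 2, and 104 CPM in wild type 3. Col4a2 was at 2.62 and 8.40 CPM, at 0.171 and 2.59, and at 55.5 CPM. Both genes were thus detected in knockout 1, knockout 2 and wild type 2, from 26 to 214 counts each, with at most 3 counts in wild type 1. The share of Col4a1 in the pair's counts, in which gene length cancels between libraries, was 38.2% in knockout 1 (95% Wilson interval 27.6 to 50.1), 43.8% in knockout 2 (38.9 to 48.9) and 42.9% in wild type 2 (36.7 to 49.3). In wild type 3 it was 65.3% (64.3 to 66.3), above the upper bounds of those 3 libraries, whereas wild type 1 had only 3 counts of the pair. The intervals cover counting error only and compare libraries, not genotypes. The 2 gene bodies overlap by 85 bases, and the sources used here do not give the strand setting of the counting.

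**Figure D2:**
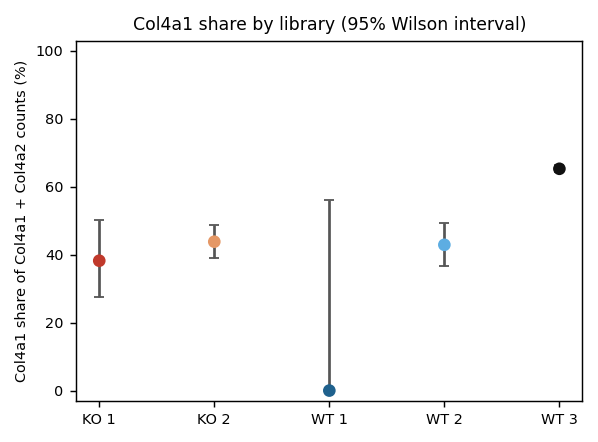
Share of Col4a1 in the summed counts of Col4a1 and Col4a2 in each RNA library (percent, points) with its 95% Wilson interval (bars). KO 1, KO 2 and WT 2 lie between 38.2% and 43.8%, WT 3 at 65.3%, and WT 1 has 3 counts in all.

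Adhesive glycoproteins made up the next group, with 8 of 9 restricted to wild type 3. Sparc, a collagen-binding protein of bone and wounds, was at 605 CPM there and at most 0.214 elsewhere. Fbn1, the microfibril protein fibrillin, was at 1.56 and 0.824 CPM in knockout, 0.968 and 0.643 in wild type 1 and 2, and 415 CPM in wild type 3. Tnc, a matrix protein of healing and developing tissue, was at 251 CPM against at most 0.196, and Thbs2 at 219 CPM against at most 0.685. Igfbp7, a secreted growth factor binding protein, was at 0.273 to 0.706 CPM in the other 4 libraries and at 146 CPM in wild type 3.

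Among the genes at 10-fold or more, Fn1 and Thbs1 alone also reached 1 CPM in each of the other 4 libraries. Fn1, fibronectin, was at 1.31 and 1.06 CPM in knockout, 2.62 and 3.39 in wild type 1 and 2, and 962 CPM in wild type 3. Thbs1 (chr2:118111876-118127133), an activator of latent TGF-beta that platelets and macrophages also make, was at 7.10 and 12.99 CPM, at 35.1 and 2.75, and at 1743 CPM. Outside wild type 3, wild type 1 was the high library for Thbs1, from 617 counts. The same library led for Fstl1, a secreted glycoprotein, at 5.92 CPM against 0.196 to 0.682 in knockout 1, knockout 2 and wild type 2, and for Timp3, an inhibitor of matrix proteases, at 1.71 CPM against at most 0.156. Thbs1 made up all 617 counts of the 2 thrombospondins in wild type 1 (95% Wilson lower bound 99.4%) and 88.8% in wild type 3 (88.6 to 89.0).

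Postn, periostin, a matrix protein of periosteum and ligament, was the glycoprotein outside the limit. It was at 6.85 and 2.24 CPM in knockout, 0.285 and 0.428 in wild type 1 and 2, and 54.2 CPM in wild type 3. Both knockout libraries were above wild type 1 and 2, and wild type 3 was above all.

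Small leucine-rich proteoglycans were uneven. Bgn, biglycan, was at 155 CPM in wild type 3 and at most 0.0779 CPM elsewhere. Dcn, decorin, was at 12.7 CPM in wild type 3 and at 0.436 CPM in knockout 1. Lum, lumican, had 32 counts in wild type 3 (0.567 CPM) and 10 in knockout 1 (0.623 CPM), a ratio of 0.911 (95% interval 0.437 to 2.08 from the counts), and 1 or 2 counts in the rest. A difference between those 2 libraries was not detectable at this depth.

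Receptors and surface proteins of mesenchymal cells were present in wild type 3. Pdgfra, the PDGF receptor of fibroblast progenitors, was at 30.2 CPM there, with 2 counts in wild type 1 and 0 in the other 3 libraries. Pdgfrb, the receptor of pericytes and many fibroblasts, was at 4.86 and 1.33 CPM in knockout, 0.398 and 0.487 in wild type 1 and 2, and 123 CPM in wild type 3. Pdgfra made up 19.8% of the counts of both receptors in wild type 3 (95% Wilson interval 18.9 to 20.6). It made up 0 of 78 counts in knockout 1, which allows a share of up to 3.85%, 0 of 34 in knockout 2 (up to 8.82%) and 0 of 25 in wild type 2 (up to 12%). In wild type 1 it made up 2 of 9 counts (22.2%, interval 6.32 to 54.7), a range that holds the wild type 3 share. Cxcl12, the chemokine by which marrow stroma retains blood cells, was at 67.1 CPM in wild type 3 and at most 0.0974 elsewhere. Thy1, a fibroblast surface protein, was low, with 135 counts in wild type 3 (2.39 CPM) and 0 in the other libraries.

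Contractile genes were abundant in wild type 3. Acta2 (chr19:34240336-34255585), smooth muscle actin, was at 0.685 and 1.02 CPM in knockout, 0.285 and 0.740 in wild type 1 and 2, and 662 CPM in wild type 3, with the reservation that actin genes resemble one another. Tagln, the actin-binding protein transgelin, was at 227 CPM against at most 0.0569.

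The bone-forming genes went largely against the name bone matrix for the list. Bglap, osteocalcin, which mature osteoblasts secrete, had 2 counts in wild type 3 and at most 1 in any other library, and its near-identical neighbours Bglap2 and Bglap3 had 2 and 1 counts in wild type 3 and 0 elsewhere. Reads that fit several of these copies may have been dropped or divided in the counting, so the family is uncertain. Ibsp, bone sialoprotein, had 63 counts in wild type 3 (1.12 CPM) and Sp7, the osteoblast transcription factor osterix, 125 (2.22 CPM). Alpl, alkaline phosphatase, which other mesenchymal cells also make, was the exception at 37.5 CPM, against at most 0.249 elsewhere. The genes are called stromal and matrix transcripts below.

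Enzymes and inhibitors that act on the matrix divided in one place. Serpinh1, which encodes HSP47, was at 431 CPM in wild type 3 and at most 0.0974 elsewhere, at least 2306-fold higher. Loxl1, a lysyl oxidase of elastic fibres, was at 84.0 CPM with 1 count each in knockout 2 and wild type 2. Mmp2, gelatinase A, was at 63.6 CPM against 0.810 in knockout 1 and 0.0389 to 0.196 in the others. Timp3 was at 709 CPM.

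Lox, the lysyl oxidase that cross-links collagen and elastin, was the gene with another pattern. It was at 463 and 318 CPM in knockout (7440 and 8112 counts), 9.45 and 54.8 CPM in wild type 1 and 2, and 891 CPM in wild type 3. Both knockout libraries were above wild type 1 and 2, and wild type 3 was 1.92 times knockout 1. Lox made up 93.6% and 89.2% of the 38 genes' counts in knockout, 15.9% and 76.8% in wild type 1 and 2, and 5.68% in wild type 3. Without Lox, the other 37 genes summed to 31.8 and 38.6 CPM in knockout, 49.9 and 16.5 CPM in wild type 1 and 2, and 14799 CPM in wild type 3.

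**Figure D3:**
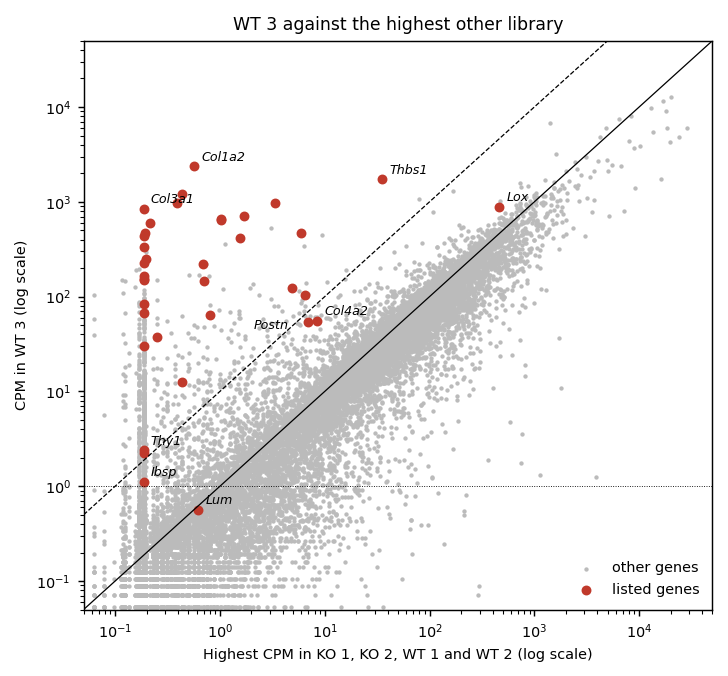
CPM in WT 3 against the highest CPM in the other 4 RNA libraries, both on log axes, for every gene at 0.05 CPM or more on both (0 counts set to 3 counts on the horizontal axis); red points are the listed genes except Bglap, which is below the axis at 0.0355 CPM in WT 3, the solid line marks equal levels, the dashed line 10-fold, and the dotted line 1 CPM in WT 3. The 32 restricted genes lie above the dashed line, while Lox lies near the line of equal levels.

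Traces of the restricted genes in the other libraries did not keep one ratio to wild type 3. Expressed as a percent of the wild type 3 level, their median was 0.00394% and 0.0364% in knockout 1 and 2. It was 0.0240% and 0.0387% in wild type 1 and 2. Here a gene with 0 counts entered as 0 and not as 3 counts. Of all the listed genes, 18 and 7 had 0 counts in knockout 1 and 2. In wild type 1 and 2, 13 and 4 did. The medians therefore depend on the number of genes at 0, and so on depth. Nothing is read from the differences between them, and the ratios of single genes with counts are given instead. In knockout 1, Col1a1 was at 0.0359% of its wild type 3 level, Fn1 at 0.136%, Mmp2 at 1.27%, Pdgfrb at 3.96% and Dcn at 3.43%. Outside the restricted genes, Postn reached 12.6% there and Lox 52.0%. In wild type 1, Thbs1 stood at 2.01%, Fstl1 at 1.27% and Col1a1 at 0.0234%.

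Genotypes were compared next. With all 5 libraries, the filter on low counts kept 20 of the 38 genes, and none passed an adjusted p of 0.05 in edgeR, where 2 of 14851 genes did (0.0135%). DESeq2 gave an adjusted p to 3 of the 20 and called 0 of them, against 8.22% of all genes. At an unadjusted p under 0.05 stood 1 of the 20 (Fstl1) against 13.8% of all genes. The median fitted log2 difference, knockout over wild type, was -6.49 over the 20 and -0.03 over all genes. Wild type 3 fixes this value: without it the median over the 12 genes kept was 1.28, against -0.01 over all 14218 genes. Both medians rest on genes that passed the filter and on a list chosen with these libraries known.

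Without wild type 3, edgeR called none of the 12 genes and 0 of 14218 genes in all (0%), limma-voom called none either, and DESeq2 called 4 of the 12 against 8.93% of all genes. At an unadjusted p under 0.05 in edgeR were 6 of the 12, against 17.7% of all genes. Both knockout libraries lay above wild type 1 and 2 for 6 of the 12 (27.1% of all genes) and below for 2 (23.6%). Over all 38 genes the knockout libraries lay above for 10 and below for 6. The shares given for all genes hold only after the filter, and none was taken without it. Some of the 38 also rest on very few counts. Outside wild type 3, Alpl, placed above, had at most 4 counts per library, and Cxcl12, placed below, at most 5. Nothing is therefore read from the count over the 38. Since a gene high in knockout passes the filter more easily, nothing is read from the count over the 12 either.

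Lox had a fitted log2 difference of 3.59 ± 0.78 (SE) without wild type 3 (edgeR adjusted p = 0.166; DESeq2 adjusted p = 4.8e-05) and of 0.34 ± 1.59 with it (edgeR adjusted p = 0.943). For Postn the difference was 3.53 ± 0.76 without wild type 3 (edgeR adjusted p = 0.162; DESeq2 adjusted p = 0.00105) and -1.97 ± 2.22 with it. Pdgfrb stood at 2.67 ± 0.80 without wild type 3 (edgeR adjusted p = 0.212; DESeq2 adjusted p = 0.0422) and at -3.70 ± 2.64 with it. The direction of Postn and Pdgfrb therefore turned with that 1 library, and the call of all 3 genes depended on the tool. Knockout 1 was the higher knockout library for each of them.

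Fstl1 was the gene of this kind on the lower side, at -3.65 ± 1.33 without wild type 3 (edgeR adjusted p = 0.265; DESeq2 adjusted p = 0.0468) and -8.97 ± 3.46 with it (edgeR adjusted p = 0.348). Fn1 differed by -1.46 ± 0.46 without wild type 3, where both knockout libraries were below wild type 1 and 2, and Col5a1 by 2.64 ± 0.74 (edgeR adjusted p = 0.224 and 0.200), neither called by DESeq2. Col4a1 and Col4a2 differed by 1.99 ± 1.48 and 1.94 ± 1.13, Thbs1 by -1.19 ± 1.20, Acta2 by 0.61 ± 0.63, Igfbp7 by 0.57 ± 0.72 and Fbn1 by 0.42 ± 0.65. These 6 were above an unadjusted p of 0.05 in edgeR, and the genotypes overlapped for 4 of them, the knockout libraries lying above for Col4a2 and Igfbp7.

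**Figure D4:**
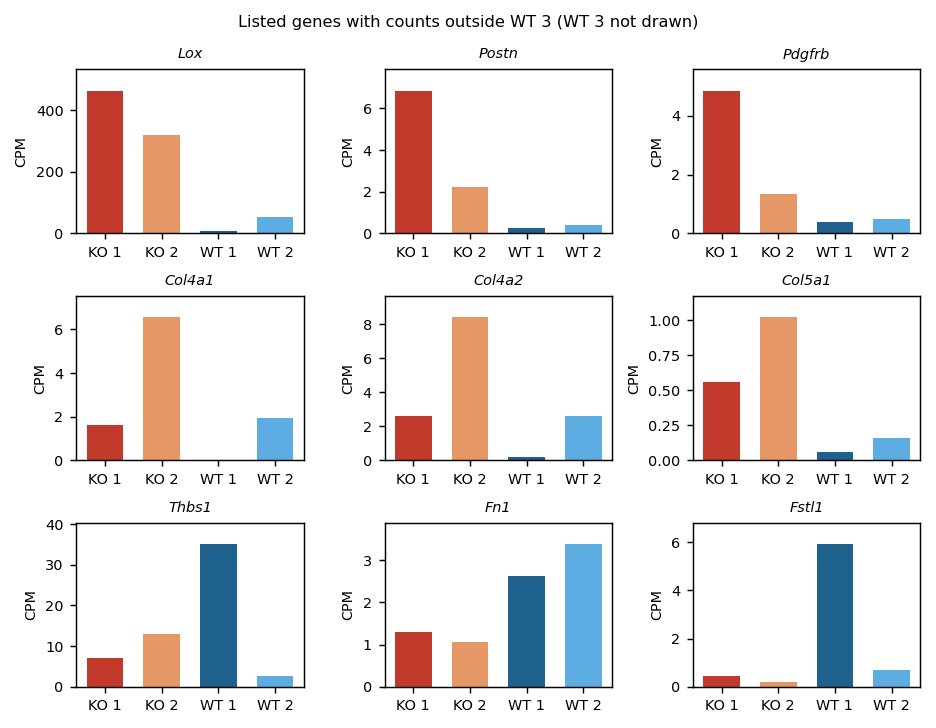
CPM of 9 of the listed genes in KO 1, KO 2, WT 1 and WT 2 (bars from 0, 1 library each; each panel has its own scale, and WT 3 is left out). Lox, Postn, Pdgfrb, Col4a2 and Col5a1 are higher in both knockout libraries, Fn1 and Fstl1 are lower in both, and Thbs1 is highest in WT 1 at 35.1 CPM.

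Marker lists of other cell types were then read in the same way. Of 13 further mural and smooth muscle genes, 8 were restricted to wild type 3, and the list summed to 368 CPM there against 1.02 to 5.54 CPM in the others. Tpm2, a tropomyosin, was at 136 CPM, Myl9, a myosin light chain, at 107, Mylk, its kinase, at 59.5 and Cnn1, calponin, at 34.4 CPM. The pericyte genes Rgs5, Kcnj8 and Abcc9 were at 0.337, 0.0355 and 0.337 CPM in wild type 3. Other genes of the list that pericytes express were higher: Mcam was at 7.36 CPM and Notch3 at 5.196, both restricted, and Cspg4 was at 4.01 CPM against 0.398 to 2.71 in the others. These pericyte genes were chosen after their values were seen.

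Of 16 genes of fibroblast and mesenchymal identity, 6 were restricted to wild type 3. Prrx1, a limb and mesenchyme homeobox factor, was at 88.8 CPM there and at most 0.0623 elsewhere, and Foxc1, a factor of marrow stroma, at 18.2 against at most 0.125. Snai2, Twist1, Lepr and Ebf3, also restricted, were at 14.4, 8.74, 8.46 and 6.65 CPM in wild type 3. Twist2, with 85 counts in wild type 3 and 0 elsewhere, missed the limit only because 0 is set to 3 counts. S100a4 was at 49.6 CPM in wild type 3 and at 63.8 in wild type 2, and Kitl, stem cell factor, at 36.01 against 2.74 to 11.9 CPM in the others. Dpt and Tcf21, markers of some tissue fibroblasts, had 0 counts in all 5 libraries.

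None of 16 further osteoblast and osteocyte genes was restricted, although 9 were highest in wild type 3. Pth1r was at 1.31 CPM there against at most 0.273 elsewhere, and Dlx5 had 30 counts there and 0 elsewhere. Omd, with 70 counts in wild type 3 and 0 elsewhere, missed the limit only because 0 is set to 3 counts. The sum of the 16 was mostly Spp1, osteopontin, which macrophages express, at 6829 CPM in wild type 3 and 351 to 1406 CPM in the others. Runx2, the factor that specifies osteoblasts, was at 12.02 and 12.2 CPM in knockout, 5.98 and 5.82 in wild type 1 and 2, and 9.74 in wild type 3. Smpd3 was at 2.59 CPM in wild type 3 and 7.93 to 21.8 CPM in the rest. Dmp1, Mepe and Sost, genes of osteocytes, had 0 counts in all 5 libraries.

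Of 10 cartilage genes, 3 were restricted: Col2a1, the collagen of cartilage, at 58.1 CPM, Col10a1 at 4.08 and Sox9 at 2.02 CPM. Acan, Col9a1 and Chad, genes that chondrocytes express, had 0 counts in all libraries. Of 12 endothelial genes none was restricted, although 8 were highest in wild type 3. Emcn, endomucin, had 99 counts there and 0 in the other 4 libraries, and missed the limit only because 0 is set to 3 counts. Cdh5, the cadherin of endothelial junctions, was at 1.95 CPM in wild type 3 against at most 1.56. Vwf was highest in wild type 1 at 194 CPM, Kdr was at 8.16 to 24.2 CPM throughout, Pecam1 was highest in knockout 1 at 26.4, and Tie1 was at 2.84 CPM in wild type 3. Of 8 adipocyte genes Plin4 was restricted, at 3.53 CPM, and Pparg was at 22.5 CPM in wild type 3 and 22.6 to 104 CPM in the others. Epithelial and erythroid lists summed to less than 1 CPM in every library. No tested member of any of these lists passed in edgeR, with all libraries or without wild type 3. With all libraries the filter kept 3 of the 13 mural, 4 of the 16 fibroblast and 5 of the 16 osteoblast genes. It kept 3 of the 10 cartilage, 8 of the 12 endothelial and 1 of the 8 adipocyte genes, and no epithelial or erythroid gene. The other members were not tested.

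**Figure D5:**
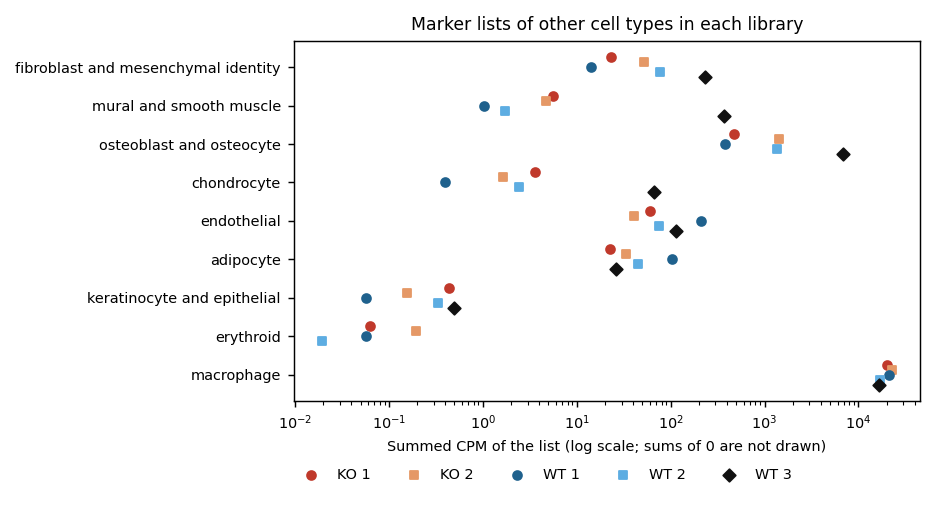
Summed CPM of each marker list in the 5 RNA libraries (log axis, 1 point per library; sums of 0 are not drawn). WT 3 stands apart for the mural and smooth muscle list at 368 CPM and for the cartilage list. It is also highest for the fibroblast list, at 235 against 14.3 to 77.1 CPM. The same holds for the osteoblast list, mostly Spp1, at 6849 against 381 to 1435 CPM. For the endothelial list WT 3 lies among the other libraries, and the macrophage list lies between 16552 and 22695 CPM in all 5.

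Macrophage genes remained abundant in wild type 3. Ptprc, the CD45 antigen of all white blood cells, was at 577 CPM there and at 801 to 1194 CPM in the others, and Csf1r, the M-CSF receptor, was at 1237 CPM against 1078 to 2031. Adgre1, which encodes F4/80, was at 7243 and 5904 CPM in knockout, 1321 and 3085 in wild type 1 and 2, and 805 in wild type 3. Lyz2, lysozyme, was at 9783 CPM against 8014 to 13082. The part of these levels in the results above was not tested.

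Other genes with the same restriction were counted over the whole table. The 617 genes, of which 607 are protein coding, took 31152 CPM in wild type 3, or 3.12% of its counts. Taking each other library in turn as the high one, 10 genes were restricted to knockout 1, 9 to knockout 2, 8 to wild type 1 and 1 to wild type 2. Among the non-members of highest level in wild type 3 were further matrix genes. Fbln2, fibulin-2, was at 326 CPM there against at most 0.117 elsewhere, Hspg2, perlecan, at 191 against at most 0.157, and Ccdc80 at 169 against at most 0.628. Aebp1, a collagen-binding protein, was at 296 CPM against at most 0.196, and Timp1, a protease inhibitor, at 167 against at most 0.779 CPM.

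The other genes of highest level had further roles. Ccn2 and Ccn5, matricellular proteins, were both at 150 CPM, and Cald1, caldesmon of contractile cells, at 224 CPM. Cdh11, the cadherin of mesenchymal cells, was at 169 CPM, Dkk3, a secreted glycoprotein, at 145 and Serpinf1, a secreted anti-angiogenic serpin, at 148 CPM. Csf1, which encodes M-CSF itself, was at 344 CPM in wild type 3, 3.74 and 2.98 in knockout, and 6.37 and 2.01 CPM in wild type 1 and 2. Fat1, an atypical cadherin, was at 358 CPM, Nedd4, a ubiquitin ligase, at 449, Grb10, an adaptor of insulin signalling, at 139, and Cyp1b1, a cytochrome P450, at 196 CPM. Scd2 and Scd1, fatty acid desaturases, were at 1058 and 191 CPM in wild type 3 and reached 80.2 and 16.1 elsewhere, while Errfi1, an inhibitor of EGF receptors, was at 141 against at most 10.6 CPM.

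Of a list of 46 symbols of other collagens and matrix proteins, 42 were in the table under the listed symbol and 21 were restricted. The 46 include older and newer symbols of the same gene, and genes listed only under an older symbol are not in these counts. Emilin2, Tgfbi, Col18a1 and Lamc1, the 4 of highest mean level, were not: Emilin2 was at 386 CPM in wild type 3 and 772 CPM in knockout 1, and Col18a1, from which endostatin is cut, at 55.4 CPM in wild type 3 and 198 and 183 CPM in knockout. Tgfbi was at 366 CPM in wild type 3, 130 and 205 in knockout and 22.1 and 271 CPM in wild type 1 and 2. Lamc1, a laminin chain, was at 164 CPM against 37.5 to 77.1. In edgeR 16 of the 42 were tested and 0 passed, with 3 at an unadjusted p under 0.05, against 13.8% of all genes.

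The machinery that folds and processes collagen was present in every library. Of 29 such genes 11 were restricted to wild type 3, and the sum was 4173 CPM there against 1819 to 2008 CPM in the other 4. P4hb, the disulfide isomerase subunit of prolyl hydroxylase, was at 1134 CPM in wild type 3 and 471 to 830 elsewhere, Colgalt1, a collagen galactosyltransferase, at 275 against 108 to 359, and Plod1, a lysyl hydroxylase, at 249 against 78.5 to 275 CPM. Timp2 was at 32.9 and 49.5 CPM in knockout, 354 and 161 in wild type 1 and 2, and 508 in wild type 3, with both knockout libraries below all 3 wild-type ones (log2 -3.13 ± 0.60, edgeR adjusted p = 0.188). In edgeR 22 of the 29 were tested and 0 passed, with 4 at an unadjusted p under 0.05, against the same 13.8%.

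5hmC was read as an assay that the choice of the genes had not used. A listed peak lay in the body of 6 of the 38 genes (15.8%, against 16.6% of protein-coding genes), 7 peaks in all, 3 named as called in knockout and 4 in wild type. The 5hmC samples used here hold no counterpart of wild type 3. Whether a peak lies in an exon, an intron or a UTR was not assigned, since the gene table gives only starts and ends. Between them the 2 knockout libraries differed by less than sampling noise over the whole list (chi-square divided by its degrees of freedom 0.575, from 2544 peaks), so they were counted as 1 sample.

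The 2 peaks in Col4a2 (chr8:11372021-11372531 and chr8:11411816-11412202) had 1 and 3 and 2 and 3 counts in knockout against 8 and 33 and 8 and 21 in wild type 1 and 2. The knockout libraries held 46230 and 42489 counts in all peaks and the wild-type ones 42678 and 219116. The sum over Col4a2 did not pass (log2 -1.18 ± 0.72, edgeR adjusted p = 0.309), although relative to those totals each wild-type library lay above both knockout ones at both peaks. The 2 Col4a2 peaks were named as called in wild type, so this direction may come from how they were listed, and nothing is read from it. Peaks in Fn1, Fstl1 and Igfbp7 had 2 to 5 counts in each knockout library, too few to show a difference at this depth. The Fn1 peak was named as called in knockout, those of Fstl1 and Igfbp7 in wild type.

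Peaks in Bgn and Col1a2, both named as called in knockout, had nearly all their counts in knockout 2. A higher level in knockout at these peaks may come from how they were listed. The Bgn peak (chrX:73494859-73495461, 475 bases before the end of the gene) had 1 count in knockout 1, 27 in knockout 2, 0 in wild type 1 and 1 in wild type 2. The Col1a2 peak (chr6:4540591-4540900, 643 bases before the end of the gene) had 1, 17, 0 and 0. With the knockout libraries as 1 sample, the Bgn peak was the only peak in the listed genes that passed the filter on counts, and edgeR called it higher in knockout (log2 6.05 ± 1.28, adjusted p = 3.7e-05), among 169 called of 859 tested (19.7%). With 1 sample in the knockout arm, this test does not see the spread between 1 and 27 counts at this peak, so the call is no evidence of a difference between genotypes. With the knockout libraries as 2 samples and both wild-type libraries, neither the peak nor the gene sum passed the filter on counts. By gene sums edgeR called Bgn and not Col4a2, the 2 listed genes tested, among 126 of 1263 genes (9.98%). Without knockout 2, Bgn did not pass the filter and was not tested. The fits without wild type 1 or wild type 2 held the knockout libraries as 2 samples and left 1 wild-type sample. In these the Bgn gene sum had log2 differences of 5.95 and 6.88, and the Bgn peak 5.34 and 6.72. The gene sum stood at 6.34 with the knockout libraries as 1 sample and both wild-type ones. These are unlike models, so the values are no check of one another. In the RNA of knockout 1 and 2, Bgn had 0 and 1 counts and Col1a2 had 3 and 4.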

How the data were processed

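Counts per gene and counts per peak are the values the authors deposited, per the labels from total RNA depleted of ribosomal RNA and from 5hmC-enriched DNA. As tools, the notes the submitters gave on processing list STAR, HTSeq, BWA, MACS2, Trim Galore and CASAVA 1.4, with the build GRCm38 and no roles. The sources used here do not state the strand setting, the annotation release or how duplicates were handled. Of 47731 genes, 47224 matched a symbol. CPM are per 1000000 counts in genes. Positions and promoter windows came from RefSeq tables of GRCm38.p6.

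Tests ran on whole tables with edgeR 4.0.16 in R 4.3.3 (quasi-likelihood, TMM, filterByExpr, two-sided, Benjamini-Hochberg, threshold 0.05) and were tested on simulated data. In simulated RNA counts, with the same spread for every gene, edgeR recovered 0% of 2-fold and 14% of 4-fold changes. It recovered 52% of 8-fold and 96% of 32-fold changes. A gene that did not pass in edgeR may therefore still differ. DESeq2 1.42.0 and limma-voom (limma 3.58.1), other scalings and filters, a replicate block and leaving out libraries were alternatives. Peaks were assigned to gene bodies they overlap. The genes and lists were chosen with earlier results of these data known. Named non-members are the 20 restricted protein-coding genes of highest level in wild type 3 and up to 4 of highest mean per list; other named list genes were chosen after their values were seen. Some genes that this rule names are not reported here.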

Additional observations from a re-analysis of the deposited data

How the results depend on the processing

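The count of 32 restricted genes was 29 to 35 at 20- and 5-fold, at 0.5 and 5 CPM and with TMM-scaled CPM, and the 617 genes in all became 420 to 916. The genotype calls depended on the tool: over all genes edgeR called 2, 0 with total counts, 0 with the replicate block and 0 without any 1 library, and 4 at a threshold of 0.1, limma-voom called 1 and DESeq2 1211. Without wild type 3, DESeq2 called 1269 and limma-voom 0. None of the listed genes tested was called under any planned setting; DESeq2 without wild type 3, chosen after seeing the data, called 4. DESeq2 gave an adjusted p for only 3 of the 20 with all libraries. The median log2 of the 20 listed genes tested was -6.49, and 0.99 with the replicate block; it was -8.12 over all 38 without the filter, and between -8.72 and 1.28 over the 12 to 37 genes tested with 1 library left out, the upper end without wild type 3 (DESeq2 1.34, limma-voom 1.51). In the block wild type 3 has a number of its own and drops out. The numbers are shared by 2 pairs only, with correlations of deviations of 0.01 and -0.12, so they were not taken as pairing. In 5hmC, the listed peaks called (1) became 0 with the knockout libraries as 2 samples, 0 with the replicate block, 0 with total counts, and 0 to 2 with 1 library left out. The listed genes called by sums (1) became 0 with 2 samples, 0 with the block, and 0 to 2 with 1 library left out. With the knockout libraries as 2 samples and both wild-type libraries, no peak or sum of a listed gene passed the filter. These 0s therefore come from no test, as do those for Bgn and Col1a2 without knockout 2. Each 5hmC fit with 1 library left out entered the libraries singly and left 1 sample in an arm, so nothing is read from its calls. Of the 7 peaks in listed genes, the filter kept 1.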

Other observations

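Bmp1, the protease that trims procollagen and was chosen here after its values were seen, followed Lox. It was at 39.1 and 25.8 CPM in knockout, 0 and 0.545 in wild type 1 and 2, and 126 CPM in wild type 3. Without wild type 3 its log2 difference was 6.58 ± 1.04 (edgeR adjusted p = 0.152), and with all libraries -0.33 ± 2.38 (edgeR adjusted p = 0.964).

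Peaks with 12 or more counts in 1 knockout 5hmC library and at most 2 in the other were counted after the Bgn and Col1a2 peaks had been seen. There were 4 among 9151, all with the counts in knockout 2, and 0 in the other direction. Besides Bgn and Col1a2, one lay in Tpm1 (chr9:67022770-67023194), a tropomyosin gene, with 1, 14, 0 and 1 counts in knockout 1 and 2 and wild type 1 and 2. The last lay outside gene bodies (chr15:21656495-21656732), with 2, 15, 1 and 3 counts. In RNA, Tpm1 was at 155 and 136 CPM in knockout, 61.8 and 113 in wild type 1 and 2, and 416 CPM in wild type 3.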
